A study of Mus musculus with 6 samples.

Results

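Krüppel-like factors are transcription factors that bind CACCC boxes and GC-rich DNA through zinc fingers at their carboxyl end and differ in the activating or repressing domains that precede the fingers. In blood vessels, Klf2 and Klf4 are known as shear-stress-responsive regulators of an anticoagulant and quiescent endothelial state, while Klf1 and Klf3 act in red-cell precursors. The 8 genes described here are Klf2, Klf3, Klf4, Klf6, Klf7, Klf9, Klf10 and Klf13, out of 18193 genes measured. Klf1, the erythroid member of the family, was left out of the group and is given as a reference only. The 8 genes were represented by 30 probe sets that the platform annotation ties to a single gene, and each gene is described by whichever of its probe sets had the highest mean level.

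The values come from 6 Affymetrix mouse genome arrays, 3 for each of 2 cell populations sorted from the fore and hind limb skeleton of mice at postnatal day 3. The Tie2-negative population was titled as lacking CD45 (a leukocyte antigen), Ter119 (an erythroid antigen), Itgav (integrin alpha V) and Tie2 (the angiopoietin receptor), and the Tie2-positive population as lacking CD45 and Ter119, low for Itgav and positive for Tie2. Ter119 is in these titles but not among the antibodies that the protocol names of the sort. All mice are labelled wild type and untreated, although the protocol speaks of GFP-labelled animals, and each sample came from the pooled limbs of a litter. The labels do not state whether different litters were used within a population. The spread behind each p-value may therefore be technical.

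The populations were mixtures, as their marker genes showed. Of 13 pan-endothelial markers, 8 rose in the Tie2-positive population and 0 fell, and all 13 had every Tie2-positive array above every Tie2-negative array. Erythroid markers (6 of 9) and early B-cell markers (6 of 11) fell. Of all 18193 genes, 4.86% rose and 2.53% fell, and 15.2% had every Tie2-positive array above every Tie2-negative array. The Tie2-positive arrays were unlike one another: the median log2 level of 11 neutrophil and monocyte markers in Tie2-positive replicates 1, 2 and 3 was 5.98, 10.81 and 13.19, while the Tie2-negative arrays ran from 6.12 to 8.33. Of 8 T and NK cell markers, 0 rose and 2 fell, among them the cytokine receptor Il7r, which B-cell precursors also carry. Without Tie2-negative replicate 3 the pan-endothelial count was 3 and the erythroid count 4, without Tie2-positive replicate 2 the pan-endothelial count was 5, the B-cell count 4 and the T and NK count 0, and without Tie2-positive replicate 1 the neutrophil count was 8 of 11. None of 11 skeletal and stromal markers passed the test in either direction in limma (1 at an unadjusted p under 0.05). Acta2, smooth muscle actin, turned with the probe set: its difference was 1.06 (limma adjusted p = 0.286) and, without the x_at and s_at probe sets, whose probes can match several transcripts, -0.90 (adjusted p = 0.0132). In such bulk samples, fewer cells of a type and less RNA per cell cannot be told apart.

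In all, 3 members of the family were higher in the Tie2-positive cells: Klf4, Klf6 and Klf7. On the log2 scale they rose by 3.84, 2.49 and 2.40, and the Tie2-positive arrays of each lay wholly above the Tie2-negative arrays. Klf2 showed the same separation, with a difference of 2.34, but did not pass the test. Klf3, Klf9, Klf10 and Klf13 overlapped between the populations and did not pass. Changes are Tie2-positive minus Tie2-negative log2 values after quantile normalization, tested with limma, and a gene passed when its Benjamini-Hochberg adjusted p over all 18193 genes was under 0.05. Of the 8 genes, 3 passed as higher, where 4.86% of all genes did, and 0 passed as lower, where 2.53% of all genes did (1, Klf3, was lower at an unadjusted p under 0.05). For 4 of the 8 every Tie2-positive array was above every Tie2-negative array, which held for 15.2% of all genes, and for 0 of the 8 it was the reverse, which held for 23.9% of all genes. The median change of the 8 genes was 1.49, against -0.11 over all genes.

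**Figure D1:**
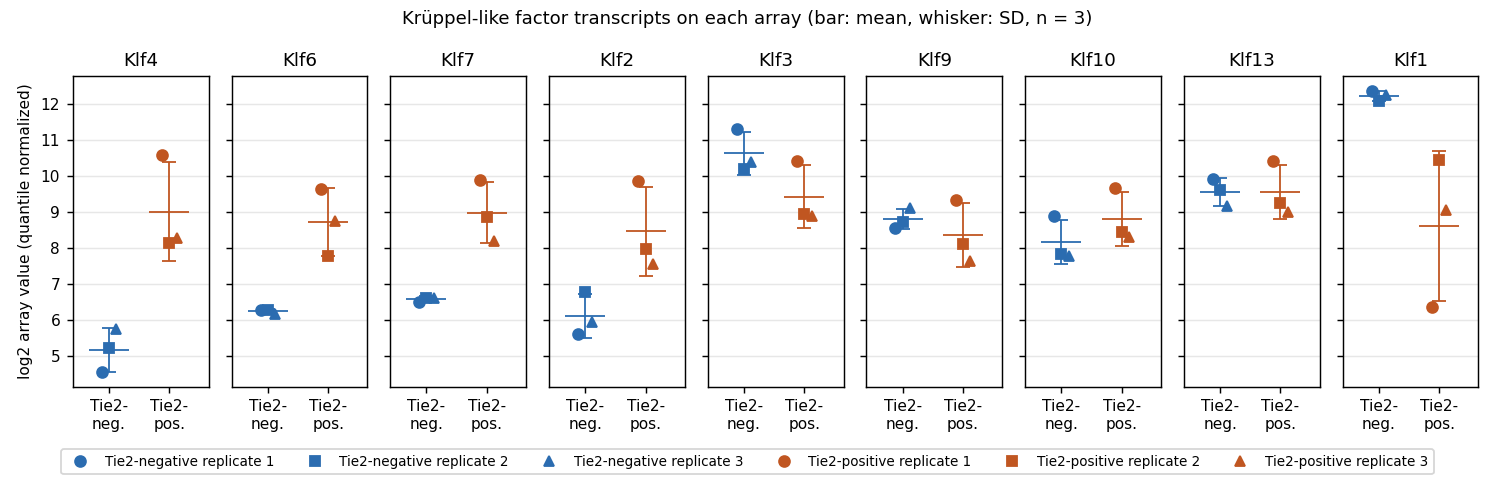
Quantile normalized log2 value of each gene (y axis) on the 3 Tie2-negative (blue) and 3 Tie2-positive (orange) arrays, with the mean as a bar and the SD as whiskers. Klf4, Klf6, Klf7 and Klf2 have no Tie2-positive array within the Tie2-negative range, whereas Klf3, Klf9, Klf10 and Klf13 overlap; levels of different genes come from different probes and are not comparable.

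Klf4 encodes a factor that restrains inflammation and proliferation in endothelium, is needed for monocyte differentiation and is also known as a reprogramming factor. Its log2 values were 4.54, 5.20 and 5.74 in Tie2-negative replicates 1, 2 and 3 and 10.59, 8.13 and 8.28 in Tie2-positive replicates 1, 2 and 3. The lowest Tie2-positive array was thus 2.40 above the highest Tie2-negative array. The means were 5.16 ± 0.60 (SD, n = 3) and 8.999 ± 1.38 (SD, n = 3), a rise of 3.84 ± 0.68 (SE; 14.3-fold on the array scale; limma adjusted p = 0.0262). The second Klf4 probe set gave the same direction with a smaller difference of 2.19 ± 0.49 (SE), also without overlap, and lay just outside the threshold when all 45037 probe sets were tested (limma adjusted p = 0.0513). The deposited values carry no detection calls, so whether the Tie2-negative level was above background was not analysed, and the fold is that of the array values.

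Klf6 is a widely expressed factor with roles in vascular development, wound responses and the induction of the cell-cycle inhibitor p21. Its values were 6.26, 6.27 and 6.16 in Tie2-negative replicates 1, 2 and 3 and 9.64, 7.77 and 8.75 in Tie2-positive replicates 1, 2 and 3. The Tie2-negative arrays lay within a narrow band, and the Tie2-positive arrays were spread over 1.87 log2 units above it. The rise was 2.49 ± 0.45 (SE, 3 arrays per population; adjusted p = 0.0271 in limma). All 5 probe sets of Klf6 had the Tie2-positive arrays above the Tie2-negative ones, with differences from 1.59 to 3.03, and 4 of the 5 passed over all probe sets.

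Klf7 is best known from neurons and from the regulation of fat cells and blood progenitors. Its values were 6.48, 6.62 and 6.61 in Tie2-negative replicates 1, 2 and 3 and 9.88, 8.85 and 8.20 in Tie2-positive replicates 1, 2 and 3. Here too the Tie2-negative arrays hardly differed, with an SD of 0.08 against 0.85 in the Tie2-positive arrays, while the test fits 1 variance to both populations. The Tie2-negative means of Klf6 and Klf7, 6.23 and 6.57, were near the median of all gene values, 6.55. Whether they were above background was not analysed. The rise was 2.40 ± 0.42 (SE, 3 arrays per population; adjusted p = 0.0240 in limma). All 4 Klf7 probe sets separated the populations in the same direction, with differences from 1.71 to 2.90, and 3 of the 4 passed over all probe sets.

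Klf2 is the classical flow-induced factor of endothelium, which raises endothelial nitric oxide synthase and thrombomodulin, and is also a quiescence factor of lymphocytes. Its single probe set gave 5.61, 6.78 and 5.95 in Tie2-negative replicates 1, 2 and 3 and 9.86, 7.97 and 7.54 in Tie2-positive replicates 1, 2 and 3. The populations did not overlap, but the gap between the nearest arrays, 0.76, was smaller than the spread within the Tie2-positive population (SD 1.23). The difference of 2.34 ± 0.63 (SE, n = 3 per population) did not pass (limma adjusted p = 0.0707).

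The calls rested on single arrays. Without Tie2-positive replicate 1, the array with the highest values, the differences were smaller and the adjusted p-values lower: limma gave 3.05 for Klf4 (adjusted p = 0.00286), 2.03 for Klf6 (adjusted p = 0.00750), 1.95 for Klf7 (adjusted p = 0.00427) and 1.64 for Klf2 (adjusted p = 0.0298), so that Klf2 then passed too. Without any one of the 3 Tie2-negative arrays, 0 of the 8 genes passed, and the adjusted p of Klf4, Klf6 and Klf7 lay between 0.0661 and 0.114 with differences between 2.36 and 4.13. Klf7 did not pass without Tie2-positive replicate 2 (adjusted p = 0.0660), nor Klf6 without Tie2-positive replicate 3 (adjusted p = 0.0510). With the replicate number as a block, 0 of the 8 genes and 0 of all genes passed. The counts and calls of list genes given here were also 0 with the block and without Tie2-negative replicate 1 or 2, since no gene passed in those fits. With array weights Klf2 also passed, at a difference of 1.69 (limma adjusted p = 0.0158). The weights of Tie2-positive replicates 1, 2 and 3 were 0.25, 5.83 and 0.84, so every weighted result given here leans mainly on replicate 2 of that population.

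**Figure D2:**
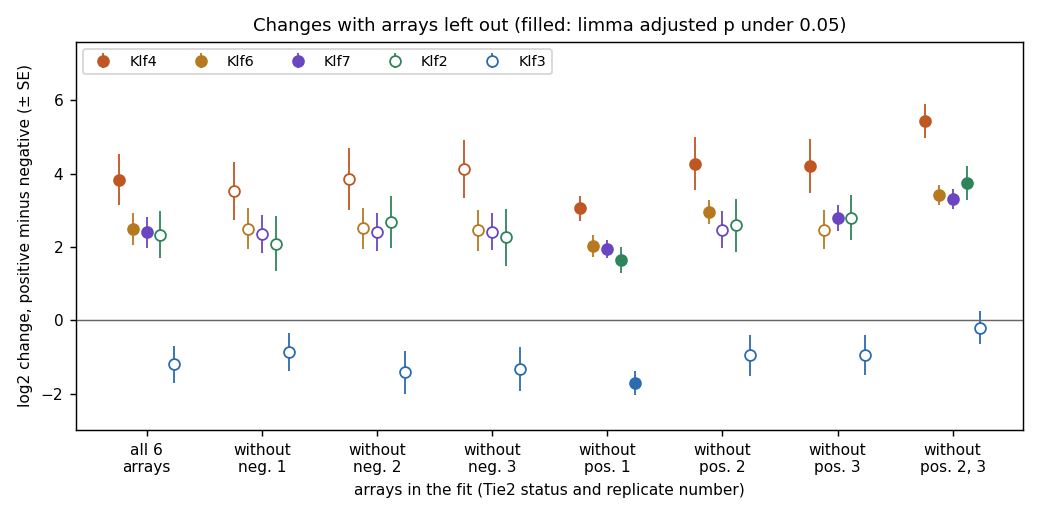
Log2 change with its SE (y axis) for 5 genes in fits on all 6 arrays, without each array in turn, and without Tie2-positive replicates 2 and 3 together (x axis); filled points have a limma adjusted p under 0.05. Klf4, Klf6, Klf7 and Klf2 stay above 0 and Klf3 below 0 in each of the 8 fits shown, while filled points for Klf4, Klf6 and Klf7 are missing whenever a Tie2-negative array is left out.

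The 4 genes whose populations did not overlap are shown with the 250 bases before their RefSeq start (GRCm38.p6), because they lay higher in the same arrays. Capitals mark GC boxes (GGGCGG) and CACCC boxes (CCACCC) on either strand, which are the letters that Krüppel-like and Sp factors are known to bind.
Klf4, chr4:55532476-55532725, minus strand: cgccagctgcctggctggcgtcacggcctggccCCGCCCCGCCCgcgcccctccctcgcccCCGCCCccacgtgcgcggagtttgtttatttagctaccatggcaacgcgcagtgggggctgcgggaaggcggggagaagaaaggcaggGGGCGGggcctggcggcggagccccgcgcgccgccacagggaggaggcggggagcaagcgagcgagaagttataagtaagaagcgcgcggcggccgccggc
Klf6, chr13:5861239-5861488, plus strand: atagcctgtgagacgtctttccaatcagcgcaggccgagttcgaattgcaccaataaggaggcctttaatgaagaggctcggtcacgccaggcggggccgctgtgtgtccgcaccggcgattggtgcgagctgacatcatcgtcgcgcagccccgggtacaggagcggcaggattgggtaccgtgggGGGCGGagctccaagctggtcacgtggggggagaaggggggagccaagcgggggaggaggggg
Klf7, chr1:64121390-64121639, minus strand: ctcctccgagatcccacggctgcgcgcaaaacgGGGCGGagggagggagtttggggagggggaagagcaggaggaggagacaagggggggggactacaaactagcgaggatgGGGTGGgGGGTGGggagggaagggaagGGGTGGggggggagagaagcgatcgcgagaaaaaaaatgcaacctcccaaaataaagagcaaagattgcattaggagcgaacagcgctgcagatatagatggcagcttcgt
Klf2, chr8:72318812-72319061, plus strand: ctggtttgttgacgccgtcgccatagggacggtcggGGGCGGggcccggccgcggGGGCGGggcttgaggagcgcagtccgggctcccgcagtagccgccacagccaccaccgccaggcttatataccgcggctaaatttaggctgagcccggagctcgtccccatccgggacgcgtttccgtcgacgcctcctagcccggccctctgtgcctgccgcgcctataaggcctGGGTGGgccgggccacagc

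A promoter window was found for 7 of the 8 genes, all but Klf10. A GC box was found in 6 of the 7 windows, where 32.7% of 32851 windows of the same length hold one, and a CACCC box in 4 of the 7, where 28.1% do. Klf4 had 4 GC boxes and no CACCC box, Klf6 had 1 GC box, Klf7 had 1 GC box and 3 CACCC boxes, and Klf2 had 2 GC boxes and 1 CACCC box. Some GC-box and CACCC-box letters can overlap, as they do in the Klf13 window. Klf2 alone among the 7 had a match to the motif of MEF2, a factor known to act on the Klf2 promoter, 118 to 109 bases before the start, where 2.92% of all windows have one. All motifs were searched on both strands. The GATA motif (AGATAA) was in 0 of the 7 windows, against 9.99% of all windows. The cyclic AMP response element (TGACGTCA) and the SRF CArG motif were also in 0 of the 7, against 1.55% and 1.47%. The exact TATA box letters TATAAA were in 0 of the 7, against 12.4%, although the Klf2 and Klf4 windows hold TATAAG, which was not counted. The AP-1 motif (TGANTCA) was in 1 window, that of Klf9, against 6.75%. The windows were rich in G and C, from 59.2% in Klf7 to 78.4% in Klf3, against a median of 52.4% over all windows. The motif shares given for all windows were not matched for this content. These matches describe letters in these windows and were not tested for binding.

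Klf3, a repressor that recruits the co-repressor CtBP and is switched on by Klf1 in red-cell precursors, was the one member with a sizeable difference towards the Tie2-negative cells. Its values were 11.29, 10.18 and 10.38 in Tie2-negative replicates 1, 2 and 3 and 10.42, 8.93 and 8.89 in Tie2-positive replicates 1, 2 and 3. Tie2-positive replicate 1 reached into the Tie2-negative range, and the other two lay below it. The difference of -1.20 ± 0.50 (SE, n = 3 per population) did not pass (limma adjusted p = 0.169). All 7 Klf3 probe sets had differences below 0, from -1.74 to -0.03; 3 of the 7 had every Tie2-positive array below every Tie2-negative array, and 0 of the 7 passed. Without Tie2-positive replicate 1 the difference was -1.71 and passed (limma adjusted p = 0.0208), and it passed with array weights at -1.47 (adjusted p = 0.0117). With Tie2-positive replicate 1 alone against the 3 Tie2-negative arrays it was -0.20 (adjusted p = 0.811, in a fit that assumes the lone array to vary like the other population).

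Klf1, the activator of globin and red-cell membrane genes, gave 12.35, 12.07 and 12.25 in Tie2-negative replicates 1, 2 and 3 and 6.34, 10.42 and 9.04 in Tie2-positive replicates 1, 2 and 3. Every Tie2-positive array was below every Tie2-negative array, but the Tie2-positive SD was 2.08, and the difference of -3.62 ± 0.94 (SE, n = 3 per population) did not pass (limma adjusted p = 0.0646). Klf1 passed without Tie2-positive replicate 1 (-2.49, adjusted p = 0.00771) and without Tie2-positive replicate 2 (-4.53, adjusted p = 0.0465). The median of 9 erythroid markers was 11.08, 10.14 and 9.70 in the Tie2-negative arrays and 5.58, 7.09 and 5.30 in Tie2-positive replicates 1, 2 and 3. Klf1 and the erythroid markers were thus high in the arrays where Klf3 was high, except that Tie2-positive replicate 1 had the lowest Klf1 value and the highest Klf3 value of its population. The part of red-cell transcripts in the Klf3 difference was not tested.

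Klf9, a repressor induced by glucocorticoid and thyroid hormone, gave 8.56, 8.72 and 9.11 in Tie2-negative replicates 1, 2 and 3 and 9.34, 8.11 and 7.63 in Tie2-positive replicates 1, 2 and 3. Tie2-positive replicate 1 was the highest of all 6 arrays and the other two Tie2-positive arrays were the lowest. The difference was -0.43 ± 0.45 (SE, 3 arrays each; adjusted p = 0.540 in limma), and its sign turned with Tie2-positive replicates 2 and 3 left out (0.55). All 7 Klf9 probe sets had differences below 0, from -0.73 to -0.03, and 0 of the 7 passed.

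Klf10, also called TGF-beta-inducible early gene 1, gave 8.87, 7.83 and 7.78 in Tie2-negative replicates 1, 2 and 3 and 9.65, 8.43 and 8.30 in Tie2-positive replicates 1, 2 and 3. The replicates numbered 1 were the highest in each population, and Tie2-negative replicate 1 lay above both remaining Tie2-positive arrays. The difference was 0.64 ± 0.46 (SE, 3 arrays each; adjusted p = 0.388 in limma).

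Klf13, which acts in red-cell precursors and lymphocytes, gave 9.90, 9.60 and 9.15 in Tie2-negative replicates 1, 2 and 3 and 10.41, 9.23 and 8.997 in Tie2-positive replicates 1, 2 and 3. The means, 9.55 and 9.55, were alike, the fitted difference was -0.0031 ± 0.41 (SE, 3 arrays each; adjusted p = 0.997 in limma), and its sign turned in 8 of 17 alternatives. The 3 Klf13 probe sets gave differences from -0.23 to 0.36, and 0 of the 3 passed. The p-values of Klf9, Klf10 and Klf13 do not show that these genes were equal in the populations, since their standard errors were between 0.41 and 0.46.

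**Figure D3:**
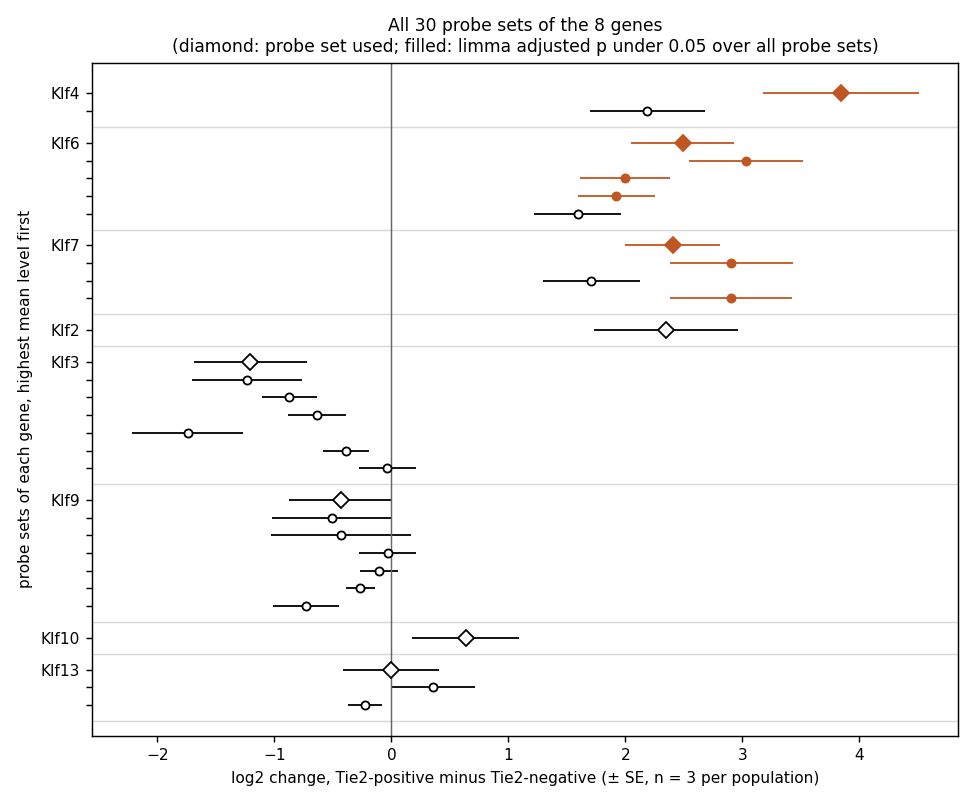
Log2 change with its SE (x axis, n = 3 arrays per population) for all 30 probe sets of the 8 genes (y axis, highest mean level first within a gene); diamonds mark the probe set used and filled symbols a limma adjusted p under 0.05 over all probe sets. All probe sets of Klf4, Klf6, Klf7 and Klf2 lie above 0, all of Klf3 and Klf9 below 0, and those of Klf13 on both sides.

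Probe sets of a gene share their RNA samples and are not replicates. Over the 30 probe sets, 8 passed as higher, against 3.39% of all probe sets, and 0 as lower, against 1.60%. The 8 that passed belonged to Klf6 (4), Klf7 (3) and Klf4 (1). Tie2-positive replicate 1 was the highest of its population for all 8 genes, which held for 42.1% of all genes.

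That array also had the highest pan-endothelial median and the lowest neutrophil and monocyte median of its population. The median of the 13 pan-endothelial markers in Tie2-positive replicates 1, 2 and 3 was 11.10, 10.18 and 9.12, against 5.58 to 6.16 in the Tie2-negative arrays. The log2 of their summed linear values, the summed level, ran from 12.58 to 15.16 in the Tie2-positive and from 10.39 to 10.94 in the Tie2-negative arrays. For the 11 neutrophil and monocyte markers, of which 0 rose and 0 fell in limma (0 also at an unadjusted p under 0.05), the summed level ran from 9.33 to 16.55 in the Tie2-positive and from 9.79 to 12.29 in the Tie2-negative arrays. When Tie2-positive replicate 1 was set alone against the 3 Tie2-negative arrays, the differences of Klf4, Klf6, Klf7 and Klf2 were 5.43, 3.41, 3.31 and 3.75; they are larger by construction, since the array that remains was the highest of its population for each gene. The part of neutrophil transcripts in the Klf differences was not tested. Of 9 macrophage markers only Mrc1, a mannose receptor also made by sinusoidal endothelium, rose (4.89 ± 0.79, SE), and their summed level ran from 10.83 to 11.37 in the Tie2-positive and from 8.98 to 9.28 in the Tie2-negative arrays. Without Mrc1 the other 8 summed to 9.25 (Tie2-positive replicate 1), 9.01 (replicate 2) and 10.69 (replicate 3), against 8.88 to 9.23 in the Tie2-negative arrays, so that replicate 1 lay just above that range, replicate 2 within it and replicate 3 further above it. Of 6 megakaryocyte markers Pf4, a platelet chemokine, rose (5.29 ± 0.79, SE), with summed levels from 10.09 to 13.26 and from 9.34 to 9.42, and without Pf4 the other 5 summed to 9.07, 12.31 and 11.17 in Tie2-positive replicates 1, 2 and 3 and to between 9.18 and 9.32 in the Tie2-negative arrays. Neither Mrc1 nor Pf4 passed without Tie2-negative replicate 3, nor Mrc1 without Tie2-positive replicate 2, and 4 megakaryocyte markers rose without Tie2-positive replicate 1. No marker was at 0, since the table's lowest log2 value is 2.56, and the part of macrophage and megakaryocyte transcripts in the Klf differences was not tested.

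**Figure D4:**
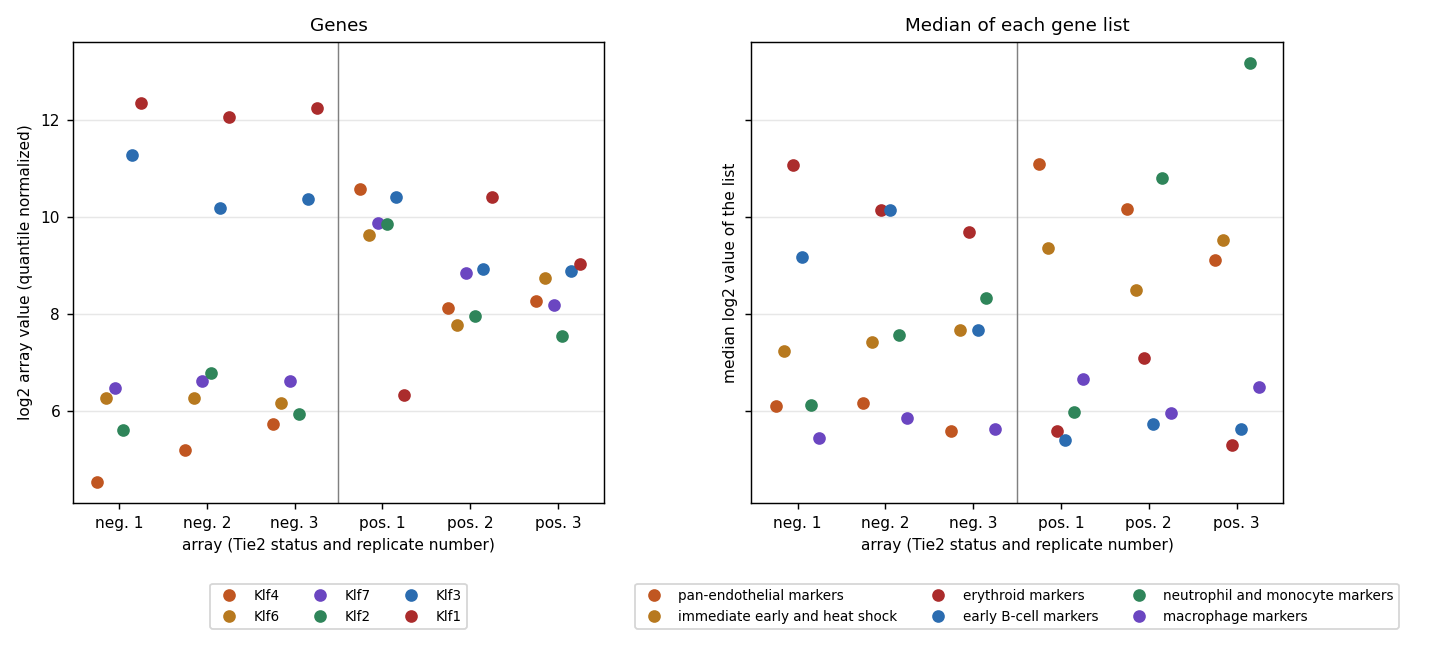
Left, quantile normalized log2 values of 6 genes (y axis) on each array (x axis); right, the median log2 value of 6 gene lists on the same arrays. Tie2-positive replicate 1 is the highest Tie2-positive array for Klf4, Klf6, Klf7, Klf2 and Klf3 and for the pan-endothelial median (11.10), and the lowest for Klf1 and for the neutrophil and monocyte median (5.98).

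Immediate early genes respond within minutes to stimuli and to tissue dissociation, and Klf2, Klf4, Klf6 and Klf10 are themselves known to be rapidly inducible. Of 21 immediate early and heat shock genes, 7 rose, 0 fell and 14 did not pass, with a median change of 1.31 and single values down to -0.76 (Btg2, an antiproliferative gene named after its values were seen). The 3 with the largest rises were the inducible chaperone genes Hspa1a (3.69 ± 0.56, SE) and Hspa1b (3.17 ± 0.46, SE), near-identical copies whose probes may not tell them apart, and Jun, a subunit of AP-1 (3.15 ± 0.44, SE; adjusted p = 0.0148 in limma). Over all genes, 4.86% passed as higher and 2.53% as lower. For 11 of the 21 every Tie2-positive array was above every Tie2-negative array, and for 1 the reverse, against 15.2% and 23.9% of all genes. The median of the list was 7.25, 7.42 and 7.68 in Tie2-negative replicates 1, 2 and 3. In Tie2-positive replicates 1, 2 and 3 it was 9.37, 8.49 and 9.53. Genes of the list differed in their order: Ier2 was highest in Tie2-positive replicate 1 (10.34) and Jun in Tie2-positive replicate 3 (10.51). The count of 7 was 3 without Tie2-negative replicate 3, Tie2-positive replicate 2 or Tie2-positive replicate 3, and Hspa1a and Hspa1b did not pass without Tie2-positive replicate 2. The part of this response in the Klf differences was not tested.

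Known regulators of Klf2 and Klf4 were mostly not called. The list held the kinase cascade of MEK5 and ERK5, the MEF2 factors it activates, the class II histone deacetylases that hold MEF2 back, the cerebral cavernous malformation genes that restrain the cascade, and Foxo1, a transcription factor known to act on the Klf2 promoter in lymphocytes. Of these 14 genes, 1 rose, where 4.86% of all genes did, and 0 fell, with a median change of 0.39. For 6 of the 14 every Tie2-positive array was above every Tie2-negative array, which held for 15.2% of all genes, and for 0 the reverse. At an unadjusted p under 0.05 in limma were 6 of the 14, against 5203 of all 18193 genes. The one that rose was Mef2c, with values of 8.56, 8.95 and 8.02 in Tie2-negative replicates 1, 2 and 3 and 10.25, 10.47 and 9.61 in Tie2-positive replicates 1, 2 and 3, a change of 1.60 ± 0.34 (SE; limma adjusted p = 0.0400). Mef2c is also transcribed in B-lineage cells, whose markers were higher in the Tie2-negative arrays. The part of these or other cells in the Mef2c difference was not tested. The call of Mef2c was lost without Tie2-negative replicate 3 or Tie2-positive replicate 2, while 3 of the 14 rose without Tie2-positive replicate 1 or 3.

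Endothelial genes that Klf2 and Klf4 are known to raise and to lower were both represented among the risers. Of 7 genes known to be raised, 1 rose and 0 fell: Thbd, thrombomodulin, with values of 5.24, 6.55 and 4.95 in Tie2-negative replicates 1, 2 and 3 and 11.64, 9.80 and 8.36 in Tie2-positive replicates 1, 2 and 3 (4.35 ± 0.84, SE; limma adjusted p = 0.0319). Nos3, endothelial nitric oxide synthase, named after its values were seen, had a difference of 2.15 ± 0.59 (SE) and did not pass (limma adjusted p = 0.0734). S1pr1, a sphingosine phosphate receptor named likewise, did not pass either (2.53 ± 0.63, SE; limma adjusted p = 0.0595). Cyp1b1 (0.13), Ptgds (-0.40) and Aqp1 (-0.66) overlapped between the populations and did not pass, nor did Cdkn1a (0.64). The summed level of the 7 ran from 10.95 to 13.31 in the Tie2-positive and from 11.48 to 12.01 in the Tie2-negative arrays. Of 6 measured genes known to be lowered by these factors, 2 rose and 0 fell: the adhesion molecule Vcam1 (6.21 ± 0.69, SE) and the VEGF receptor Kdr (4.80 ± 0.57, SE). Kdr is also one of the pan-endothelial markers. Over all genes, 4.86% passed as higher. In each of these lists, 4 genes had every Tie2-positive array above every Tie2-negative array, which held for 15.2% of all genes. The 2 probe sets of Vcam1 apart from the one used had smaller differences, down to 0.52. The call of Thbd was lost with Tie2-negative replicate 3 or Tie2-positive replicate 2 left out, while 3 of the 7 raised genes passed without Tie2-positive replicate 1 or 3.

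Among hormone receptors and hormone-responsive genes, fixed as a list because Klf9 is a hormone target, 2 of 8 rose and 0 fell although Klf9 itself did not pass. These were the kinase gene Sgk1 (3.35 ± 0.66, SE; limma adjusted p = 0.0335) and Fkbp5, a chaperone of steroid receptors (1.26 ± 0.25, SE; limma adjusted p = 0.0350). Fkbp5 was not called over the mean of its 3 probe sets, which ran from -0.39 to 1.26. For 5 of the 8 listed genes every Tie2-positive array was above every Tie2-negative array, which held for 15.2% of all genes. The shares over all genes, for this list and the next, were 4.86% passing as higher and 2.53% as lower. Of 12 partners and ubiquitin ligases of Krüppel-like proteins, 1 rose and 0 fell: Ctbp2, a co-repressor bound by Klf3, with 6.73, 7.30 and 8.32 in Tie2-negative replicates 1, 2 and 3 and 9.64, 8.98 and 9.65 in Tie2-positive replicates 1, 2 and 3 (1.98 ± 0.43, SE; limma adjusted p = 0.0435). The median change of the 12 was -0.21. For 2 of the 12 every Tie2-positive array was above every Tie2-negative array, and for 4 the reverse, against 15.2% and 23.9% of all genes. Those 4 included Ctbp1 (-0.61 ± 0.16, SE) and Kat2b (-1.29 ± 0.32, SE), which did not pass (adjusted p = 0.0699 and 0.0590 in limma). Leaving out Tie2-negative replicate 3 or Tie2-positive replicate 2 ended the calls of Sgk1 and Fkbp5, and leaving out Tie2-positive replicate 3 that of Fkbp5. The call of Ctbp2 was lost with Tie2-positive replicate 2 or 3 left out.

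The rest of the family held no called riser, except Klf12 when the mean of its probe sets was used. Of 15 measured further Klf and Sp genes, Klf1 included, 0 rose, against 4.86% of all genes, and 2 fell, against 2.53%. Their median change was -0.34. For 2 of the 15 every Tie2-positive array was above every Tie2-negative array, and for 6 the reverse, against 15.2% and 23.9% of all genes. Sp4, a GC-box factor best known from neurons, fell by 1.36 ± 0.24 (SE, 3 arrays each; adjusted p = 0.0260 in limma), and its second probe set fell by 1.86. Sp6, a factor of tooth and limb epithelium, fell by 0.85 ± 0.18 (SE; limma adjusted p = 0.0385) in the probe set used, but its 4 probe sets ran from -0.85 to -0.09, and its call was lost in the values as deposited (adjusted p = 0.0602), with median-centred arrays (adjusted p = 0.0710) and over the mean of its probe sets. Both calls were lost when Tie2-negative replicate 3 or Tie2-positive replicate 3 was left out, and that of Sp6 also without Tie2-positive replicate 2. Of the Klf genes in this list, namely Klf1, Klf5, Klf11, Klf12, Klf14, Klf15, Klf16 and Klf17, none passed (adjusted p between 0.0646 and 0.606, against 1 with an unadjusted p under 0.05, Klf1).

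The genes most like each member over the 6 arrays are given as a description, by Pearson's r among 9088 genes with a mean above the median of all genes; with 6 arrays in separated populations such an r takes in the difference between the populations. For Klf4 they were Msantd4 and Map7d1 (r = 0.9989 and 0.9987), for Klf6 Rflnb and Cask (0.9963 and 0.9943), for Klf7 Cyyr1 and Ldb2 (0.9995 and 0.9993) and for Klf2 BC028528 and Ccdc28b (0.9976 and 0.9966). Klf3 was matched most closely by Snx16 and Sarm1 (0.9878 and 0.9850), Klf9 by Abcg8 and 2010320M18Rik (0.9781 and 0.9751), Klf10 by Coro2b and Stx5a (0.9975 and 0.9934) and Klf13 by Tnks1bp1 and Parvb (0.9913 and 0.9836). Of these, Map7d1, Rflnb, Cask, Cyyr1 and Ldb2 rose in the Tie2-positive population, Cyyr1 by 4.63 ± 0.73 (SE) and Ldb2 by 3.51 ± 0.60 (SE), although none of the 5 passed without Tie2-negative replicate 3.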

How the data were processed

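Values were deposited on a log2 scale, as judged from their range of 2.56 to 14.78; the authors' summarisation and normalization steps are not given in the sources used here. Per the labels' protocols, the RNA had been amplified repeatedly. Among 45101 probe sets, 64 were array controls, which entered no test, and 34945 had 1 gene symbol in the platform annotation. The arrays' 75th percentiles differed by up to 0.27, above the limit of 0.1, so values were quantile normalized over all probe sets, which also removes a difference that went with the populations. For each of 18193 genes the probe set of highest mean was used. The populations were compared with limma 3.58.1 in R 4.3.3 (lmFit, eBayes with a mean trend, two-sided, Benjamini-Hochberg, threshold 0.05), tested on simulated data. No batch was modelled. Precision is limited by the number of arrays. Members, lists and tests were chosen with earlier results of these data known. Named genes were all members, Klf1, of each list the called genes with the largest change (at most 3 in each direction), for pathway lists with none the 2 with the highest mean, and the 2 genes most like each member. Alternatives were another scaling, another probe set rule, a low-level filter (40th percentile), other variance models, array weights, a replicate block and left-out arrays.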

Additional observations from a re-analysis of the deposited data

How the results depend on the processing

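Klf2, Klf3, Klf4, Klf6, Klf7 and Klf10 kept their direction in all 17 alternatives, and the calls of Klf4, Klf6 and Klf7 held in 13, 12 and 12 of them. With each array left out in turn, the number of the 8 genes called higher ran from 0 to 4, the number called lower from 0 to 1, and all genes called from 0 to 2148. With the replicate number as a block, 0 genes passed (smallest adjusted p 0.0521, 5080 at an unadjusted p under 0.05), including 0 of the 8 as higher. Same-numbered arrays deviated together with correlations of 0.14, 0.005 and 0.186, and arrays of different number with -0.162 to 0.055. Each Tie2-negative array correlated best with its own number, but Tie2-positive replicate 2 did so with Tie2-negative replicate 3 (0.055). The labels do not say whether the numbers pair the samples, and these correlations do not settle it. The count of all genes was 2246 with all probe sets tested, 4639 with array weights (where 1 of the 8, Klf3, passed as lower) and 3637 without Tie2-positive replicates 2 and 3; the causes were not tested, apart from the larger number of probe sets in the first. The sign of Klf13 turned, without a call, to 0.12 in the values as deposited, 0.16 with median-centred arrays, 0.04 over the mean of its probe sets, between 0.02 and 0.27 without Tie2-negative replicate 1 or 2 or Tie2-positive replicate 2 or 3 (0.17, 0.02, 0.16 and 0.27), against -0.44 without Tie2-positive replicate 1, and 0.86 without Tie2-positive replicates 2 and 3, where Klf9 was at 0.55. Signal over background was not analysed.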
